A study of Mus musculus with 9 samples.

Results

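The cell cycle and mitosis genes of mouse liver were 41 genes chosen by name, of which 40 were retained of 16521 genes in the deposited tables. A gene was retained when its identifier mapped to a listed symbol and when its mean normalised read count over both groups was at least 10 in each of the deposited tables. Cdc6, which loads the replicative helicase, was the gene left out (9.89 and 9.73 in the tables with normal and SAR), and Melk, a mitotic kinase, lay just inside (11.9 and 10.5). The retained genes were divided by role into 10 DNA replication genes, 5 genes of G1/S control and the replication checkpoint, and 25 mitotic genes.

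A dividing cell loads and fires the MCM helicase, copies its DNA during S phase with new deoxynucleotides from ribonucleotide reductase and thymidylate synthase, and then enters mitosis under CDK1 bound to cyclins A and B. Replication genes are switched on around the G1/S boundary by E2F factors. Mitotic genes are switched on later, in G2, through MuvB complexes with B-MYB and FOXM1 that act at CHR elements. In adult liver most hepatocytes are out of the cycle, and after injury hepatocytes, bile duct cells, stellate cells and leukocytes can all divide.

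Liver RNA was sequenced from 9 C57BL/6 mouse samples in 3 groups of 3. SAR libraries came from mice on the methionine- and choline-deficient (MCD) diet that also received a high dose of sarsasapogenin, a plant steroidal sapogenin, in an amount that the labels do not give. Model libraries came from mice on the MCD diet without the compound, and normal libraries, titled wild type, came from saline-treated mice outside the diet. No age, sex or duration was given, and no label says that the samples of a group are separate mice, so a p-value refers to the spread of the samples sequenced, which may be technical. In rodents the MCD diet causes steatosis, inflammation and scarring of the liver. The deposited tables hold group means, from which the reads of each library were solved exactly for 16338 of the genes, including every cell cycle gene described here. Model libraries held 12503819 to 14939063 reads over all genes. The reads that could be solved came to 6334033 to 6853444 in SAR libraries (53.1% of the summed group mean) and 5928970 to 6753971 in normal libraries (42.1%). Within a group the library with the highest size factor is called a, the next b and the last c. Values are always given in that order, and the letters are not the replicate numbers of the labels. In the authors' deposited table, 7 of 10 hepatocyte markers were called lower in model than in normal liver and 0 higher (authors' DESeq adjusted p under 0.05). Folds of all 10 ran from 0.155 for Cps1 to 0.877 for Alb, which was not called (authors' DESeq adjusted p = 0.862). By the same threshold 8 were called higher and 0 lower in SAR than in model liver, with folds of all 10 from 1.69 to 3.10.

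Most cell cycle genes were higher in model than in normal liver, and most were lower in SAR than in model liver. In model against normal liver, 32 of the 40 rose, 0 fell and 8 did not pass the test, beside 20.1% of 12344 genes tested that rose and 19.3% that fell (limma on log2 values, Benjamini-Hochberg adjusted p under 0.05). Their median log2 fold change was 2.16, against 0.02 over all genes tested. In SAR against model liver, 29 of the 40 fell, 0 rose and 11 did not pass, beside 16.6% of 12329 genes that fell and 12.2% that rose, and the median was -2.29 against -0.01 over all genes. Of the 40, 13 had a mean under 10 over the SAR and normal libraries and passed the filter on low values only through their model libraries. They were Chek1 and 12 mitotic genes (Aurkb, Bub1, Ccna2, Ccnb1, Cenpe, Cenpf, Foxm1, Kif20a, Melk, Plk1, Prc1 and Ttk). Their counts and tests are no support for the pattern. Among the other 27, 20 rose in model against normal liver (median log2 1.79) and 17 fell in SAR against model liver (median -1.64). In bulk tissue, a different number of cycling cells and a different amount of RNA per cell cannot be told apart. The 2 comparisons share the model libraries and are therefore not independent. Each model library was above each normal library for 35 of the 40 genes, beside 27.3% of all genes tested. Each was above each SAR library for 31 of the 40, beside 24.2%. Both counts include the 13 genes that passed the filter only through their model libraries, for which such a separation is favoured by the filter. No such count was made over the other 27.

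**Figure D1:**
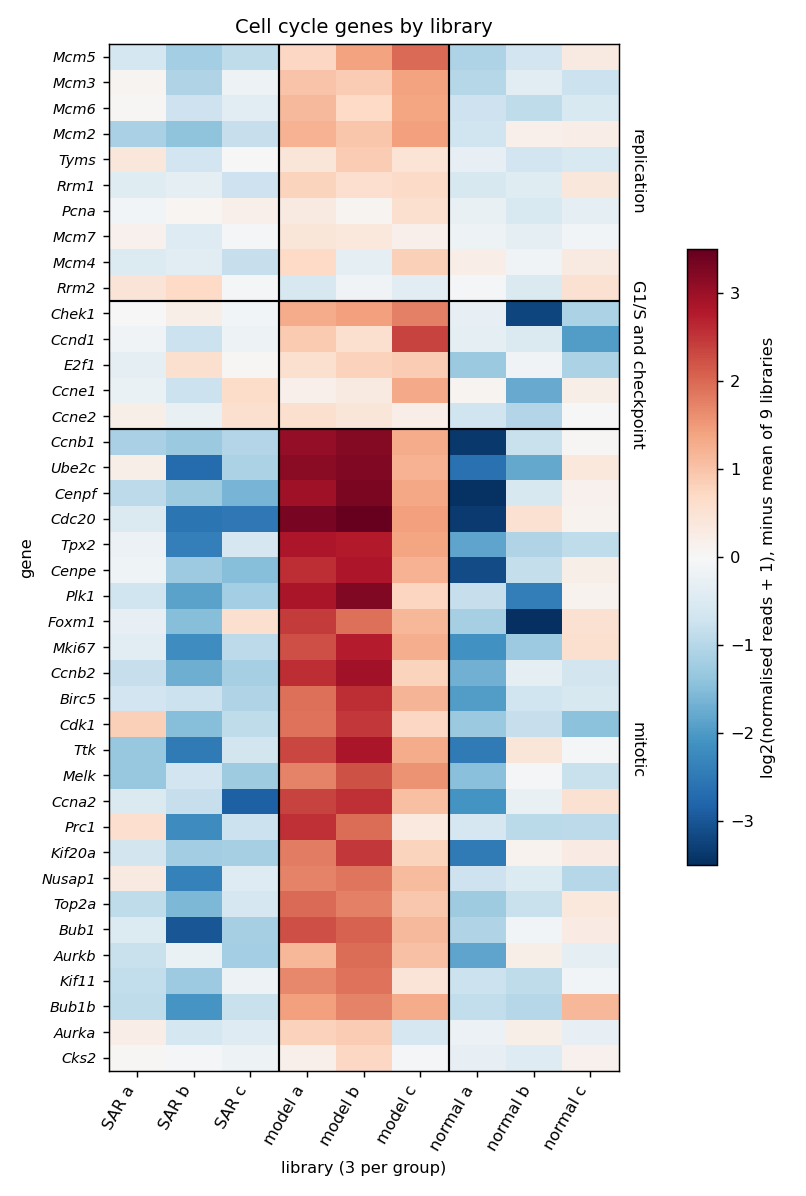
Level of each of the 40 cell cycle genes (vertical axis, grouped by role) in each of the 9 libraries (horizontal axis), coloured by log2(normalised reads + 1) minus the gene's mean over the 9 libraries. Mitotic genes are darkest red in model libraries a and b and paler in model c, whereas several replication genes and Ccnd1 are darkest in model c.

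The calls rested unevenly on single libraries, as did those over all genes. Leaving out model library a or b left 12 and 13 of the 32 higher genes in model against normal liver. Leaving out normal library a left 20, while 34, 32 and 26 rose without normal c, model c and normal b. Over all genes 2483 rose with all libraries, 1311 without model a, 1240 without model b and 1626 without normal a. In SAR against model liver, 19 genes fell without model b, 20 without model a, and 24 to 29 without each of the other libraries. Over all genes 2045 fell with all libraries, 944 without model b and 964 without model a. Rrm2 was called higher without SAR library c. The genes called in every such fit were 9 for model against normal liver (Birc5, Ccnb2, Cdk1, Mcm3, Mcm6, Mki67, Nusap1, Tpx2 and Ube2c) and 17 for SAR against model liver (Birc5, Bub1b, Ccnb1, Ccnb2, Cdc20, Cenpe, Cenpf, Mcm2, Mcm3, Mcm5, Mcm6, Mki67, Plk1, Rrm1, Top2a, Tpx2 and Ube2c). Of the 17, Ccnb1, Cenpe, Cenpf and Plk1 had passed the filter on low values only through their model libraries. A fit with limma voom, which weights each value by its precision, did not call 10 of the 32 (Ccna2, Ccnb1, Ccnb2, Cdc20, Cenpf, Kif11, Plk1, Prc1, Ttk and Ube2c; adjusted p 0.0524 to 0.1156) or 11 of the 29 (Ccnb1, Ccnb2, Ccnd1, Cdc20, Cdk1, Cenpf, Chek1, Kif11, Kif20a, Plk1 and Ube2c; 0.0542 to 0.109), and it called Bub1b in model against normal liver. By the adjusted p of the authors' deposited table, Ccnd1 and Mcm7 were not called in model against normal liver (0.126 and 0.239), nor were Ccnd1, Cdk1 and Chek1 in SAR against model liver (0.0887 to 0.234). The authors' adjusted p also called Bub1b and Kif20a higher in model than in normal liver (DESeq, 0.0212 and 0.0404). In 1 limma fit of all 9 libraries Chek1 and Foxm1 were not called lower in SAR than in model liver (0.144 and 0.103). That fit also called Bub1b and Kif20a in model against normal liver, and Prc1 in SAR against model liver (limma adjusted p 0.0318 to 0.0442). Each called gene kept its direction in every alternative run.

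Among the 10 replication genes, 8 rose in model against normal liver (median log2 0.99) and 5 fell in SAR against model liver (median -1.06). The MCM genes encode the subunits of the hexameric helicase that unwinds DNA at replication forks. Mcm6 (ENSMUSG00000026355) had 76.4, 44.8 and 56.5 normalised reads in SAR libraries, 164, 122 and 195 in model libraries and 44.2, 39.99 and 50.8 in normal libraries. All model libraries lay above all others, and Mcm6 differed in model against normal liver (log2 1.79, SE 0.24, limma adjusted p = 0.00247) and in SAR against model liver (log2 -1.43, SE 0.27, limma adjusted p = 0.00669). Mcm3 (ENSMUSG00000041859) followed the same order of groups, with 77.6, 33.9 and 62.9 in SAR, 144, 135 and 193 in model and 35.6, 54 and 42 in normal libraries. Mcm3 rose in model against normal liver (log2 1.82, SE 0.25, limma adjusted p = 0.00255) and fell in SAR against model liver (log2 -1.48, SE 0.32, limma adjusted p = 0.0109). The highest model library was c for both genes, and the SAR and normal libraries overlapped.

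Mcm5 (ENSMUSG00000005410) had 20.3, 13.3 and 16.7 normalised reads in SAR, 53.1, 85.3 and 127 in model and 14.4, 19.5 and 39.8 in normal libraries. Its model libraries spread over a wide range with c highest, and normal c was the highest of its group. Mcm5 rose in model against normal liver (log2 1.84, SE 0.46, limma adjusted p = 0.0180), which was not called without model b (adjusted p = 0.0648), normal a (0.0596) or normal b (0.0516), and it fell in SAR against model liver (log2 -2.26, SE 0.38, limma adjusted p = 0.00431). Mcm2 (ENSMUSG00000002870) stood at 19.1, 15.8 and 24.4 in SAR, 102, 85.3 and 119 in model and 26, 48.6 and 50.8 in normal libraries. The SAR libraries were the lowest of the 9, below every normal library. Mcm2 rose in model against normal liver (log2 1.31, limma adjusted p = 0.0156; 0.0577 without model a) and fell in SAR against model liver (log2 -2.32, limma adjusted p = 0.00148).

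Mcm7 (ENSMUSG00000029730) averaged 149 ± 31.6 normalised reads in SAR, 199 ± 17.6 in model and 139 ± 11.9 in normal libraries (SD, n = 3 each). It rose by a log2 fold change of 0.52 in model against normal liver (limma adjusted p = 0.0362), which was not called without model a, model b, normal a or normal b (0.112, 0.121, 0.0944 and 0.111), and did not pass in SAR against model liver (log2 -0.44, limma adjusted p = 0.132). Mcm7 overlaps Cops6 and Ap4m1 on the other strand, and no strand setting was stated, so reads of these genes could be shared. Mcm4 (ENSMUSG00000022673) did not pass in either comparison. It had 35.8, 38.8 and 28.2 in SAR, 82.5, 40.3 and 90.003 in model and 58.6, 46.5 and 62.9 in normal libraries, with model b below every normal library and just above the SAR libraries.

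The polymerase clamp and thymidylate synthase each passed the test in 1 comparison. Pcna (ENSMUSG00000027342), the sliding clamp of DNA polymerases, averaged 426 ± 43.9 in SAR, 518 ± 83.4 in model and 318 ± 30.7 normalised reads in normal libraries. In model against normal liver it rose (log2 0.69, SE 0.16, limma adjusted p = 0.0139; 0.0515 without normal b), while in SAR against model liver it did not pass (log2 -0.27, limma adjusted p = 0.239). Tyms (ENSMUSG00000025747), thymidylate synthase, averaged 74.4 ± 26.5, 116 ± 22.3 and 53.7 ± 7.14 in the same order of groups. Its level rose in model against normal liver (log2 1.09, SE 0.23, limma adjusted p = 0.00999; 0.0515 without model b) and did not pass in SAR against model liver (log2 -0.68, limma adjusted p = 0.117). Pcna and Tyms have named pseudogenes, so some of their reads could be misassigned.

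The subunits of ribonucleotide reductase, which makes deoxynucleotides, had different patterns. Rrm1 (ENSMUSG00000030978), the large catalytic subunit, had 91.9, 98.1 and 74.5 normalised reads in SAR, 212, 186 and 196 in model and 82.7, 90.8 and 162 in normal libraries. It fell in SAR against model liver (log2 -1.17, SE 0.19, limma adjusted p = 0.00365) and rose in model against normal liver (log2 0.88, SE 0.27, limma adjusted p = 0.0334), the rise being lost without any 1 of the libraries other than normal c (adjusted p 0.0553 to 0.108). Rrm2 (ENSMUSG00000020649), the small subunit that is degraded outside S phase, had 143, 171 and 100.1 in SAR, 71, 96.7 and 82 in model and 103, 73.5 and 152 in normal libraries. The model libraries were the lowest group by mean, and all SAR libraries lay above all model libraries. Rrm2 did not pass in SAR against model liver (log2 0.70, SE 0.25, limma adjusted p = 0.0627; called at 0.0397 without SAR c) or in model against normal liver (log2 -0.34, limma adjusted p = 0.379).

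**Figure D2:**
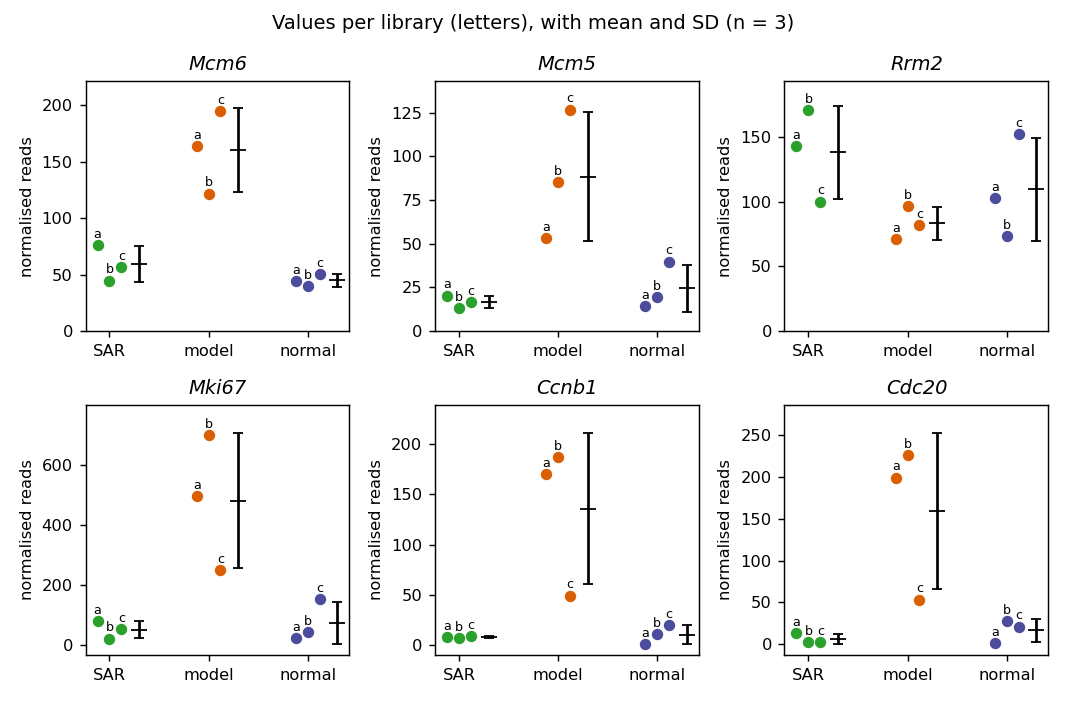
Normalised reads (vertical axes, from 0) of 3 replication genes (Mcm6, Mcm5, Rrm2) and 3 mitotic genes (Mki67, Ccnb1, Cdc20) in SAR, model and normal libraries; each point is a library with its letter, and the black bar is the mean with SD (n = 3). Model c is the highest model library for Mcm6 and Mcm5 and the lowest for Mki67, Ccnb1 and Cdc20, and Rrm2 is lower in model than in SAR libraries.

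The promoter of Mcm6 is shown because, of the called replication genes that carry an E2F site, it had the smallest p in model against normal liver. The window covers 250 bases before to 50 bases after the RefSeq start on GRCm38.p6 (chr1:128359656-128359955, minus strand). The capitals mark matches to the E2F words, searched as TTTCCCGC, TTTCGCGC, TTTGCCGC and TTTGGCGC on both strands, and the first run of capitals holds 2 overlapping matches.
Mcm6: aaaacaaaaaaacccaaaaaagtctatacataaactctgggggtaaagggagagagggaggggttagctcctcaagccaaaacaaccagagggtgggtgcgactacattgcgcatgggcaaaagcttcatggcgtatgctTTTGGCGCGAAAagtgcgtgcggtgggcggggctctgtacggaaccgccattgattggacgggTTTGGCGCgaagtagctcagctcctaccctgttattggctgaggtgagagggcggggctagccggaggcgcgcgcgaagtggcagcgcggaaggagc
In the other MCM genes with a match, the match nearest the start begins at position 19 in Mcm3, 16 in Mcm7 and -149 in Mcm5, where it overlaps another, counted from 0 at the start base. Each is shown with 17 bases on either side (chr1:20820269-20820310 minus, chr8:75109343-75109384 plus and chr5:138171843-138171884 minus).
Mcm3: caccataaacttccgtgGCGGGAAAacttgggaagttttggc
Mcm5: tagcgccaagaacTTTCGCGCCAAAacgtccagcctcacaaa
Mcm7: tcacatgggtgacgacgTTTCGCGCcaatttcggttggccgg

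Of the 5 genes of G1/S control and the checkpoint, 3 rose in model against normal liver (median log2 1.60) and 2 fell in SAR against model liver (median -0.72). Chek1, 1 of these, passed the filter on low values only through its model libraries. Among the other 4, 2 rose (median 1.34) and 1 fell (median -0.69). Ccnd1 (ENSMUSG00000070348), cyclin D1, partners CDK4 and CDK6 and responds to growth signals. It had 123, 78.8 and 119 normalised reads in SAR, 253, 199 and 699 in model and 107, 95.1 and 34.2 in normal libraries. Model c stood far above model a and b, and all model libraries lay above the rest. Ccnd1 rose in model against normal liver (log2 2.20, SE 0.56, limma adjusted p = 0.0189; 0.0501 without model a) and fell in SAR against model liver (log2 -1.64, SE 0.42, limma adjusted p = 0.0212; 0.0871 without SAR b and 0.0525 without SAR c).

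Chek1 (ENSMUSG00000032113), the checkpoint kinase that guards stalled forks, had 8.36, 9.69 and 7.70 in SAR, 22.2, 24.4 and 31.1 in model and 6.73, 0 and 3.31 in normal libraries. These are few reads, 21, 102 and 10 over the SAR, model and normal groups. As stated above, the tests of Chek1 are no support for the pattern. Chek1 rose in model against normal liver (log2 3.05, SE 0.82, limma adjusted p = 0.0227; 0.0745 without model a and 0.0822 without model b). Its fall in SAR against model liver (log2 -1.48, SE 0.43, limma adjusted p = 0.0341) was lost when any 1 of the 6 libraries was left out (adjusted p 0.0538 to 0.1195). E2f1 (ENSMUSG00000027490), a transcription factor of replication genes, averaged 30.3 ± 10.02 in SAR, 47.1 ± 5.62 in model and 15.9 ± 7.83 in normal libraries. E2f1 rose in model against normal liver (log2 1.60, SE 0.41, limma adjusted p = 0.0184; 0.0539, 0.0735 and 0.0603 without model a, model b and normal a) and did not pass in SAR against model liver (log2 -0.66, limma adjusted p = 0.164).

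The cyclin E genes, whose products drive CDK2 at S phase entry, passed in neither comparison. Ccne1 (ENSMUSG00000002068) averaged 17 ± 8.94 normalised reads in SAR, 28.2 ± 13.6 in model and 14.2 ± 8.55 in normal libraries, and all of its groups overlapped. Ccne2 (ENSMUSG00000028212) averaged 18.9 ± 5.53, 21.9 ± 2.64 and 11.2 ± 4.72 in the same order, and every model library was above every normal library.

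Among the 25 mitotic genes, 21 rose in model against normal liver (median log2 2.87) and 22 fell in SAR against model liver (median -2.92). Of the 13 that passed the filter on their SAR and normal libraries alone, 10 rose (median 2.87) and 11 fell (median -2.72). The other 12, named above, passed it only through their model libraries, so their tests below are no support for the pattern. The 25 genes included the kinase that drives entry into mitosis and its cyclins. Cdk1 (ENSMUSG00000019942) had 83.6, 15.8 and 24.4 normalised reads in SAR, 174, 260.3 and 77.3 in model and 18.3, 25.9 and 16.6 in normal libraries. SAR library a stood well above the other SAR libraries and reached above model c, the lowest model library. Cdk1 rose in model against normal liver (log2 2.87, SE 0.45, limma adjusted p = 0.00378). It fell in SAR against model liver (log2 -2.21, SE 0.62, limma adjusted p = 0.0281), which was not called without SAR b, SAR c, model a or model b (adjusted p 0.103, 0.0913, 0.0899 and 0.107).

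Ccnb1 (ENSMUSG00000041431), cyclin B1, had 8.36, 7.27 and 8.99 in SAR, 171, 187 and 49.4 in model and 0.961, 10.8 and 19.9 in normal libraries. It rose in model against normal liver (log2 3.91, SE 0.91, limma adjusted p = 0.0138; 0.0622 and 0.0598 without model a and model b) and fell in SAR against model liver (log2 -3.68, SE 0.51, limma adjusted p = 0.00198). Ccnb2 (ENSMUSG00000032218), cyclin B2, had 16.7, 8.48 and 12.8, 185, 234 and 51.8 and 8.65, 23.8 and 18.8 in SAR, model and normal libraries. In model against normal liver it rose (log2 2.98, SE 0.61, limma adjusted p = 0.00902) and fell in SAR against model liver (log2 -3.32, SE 0.55, limma adjusted p = 0.00408), and with limma voom neither call passed (adjusted p 0.0749 and 0.0754). For both cyclins model c lay far below model a and b and still above every SAR and normal library; each cyclin has a named pseudogene.

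Ccna2 (ENSMUSG00000027715), cyclin A2, had 10.7, 8.48 and 1.28 in SAR, 85.3, 95.9 and 33.5 in model and 2.88, 13 and 23.2 in normal libraries, and every model library was above the rest. It rose in model against normal liver (log2 2.59, limma adjusted p = 0.0259; 0.0991, 0.0992, 0.0544 and 0.0502 without model a, model b, normal a and normal b) and fell in SAR against model liver (log2 -3.38, limma adjusted p = 0.00920; 0.0503 without model b). Foxm1 (ENSMUSG00000001517), the transcription factor of G2 and M phase genes, had 9.55, 3.64 and 18 in SAR, 68.8, 48 and 27.9 in model and 4.81, 0 and 17.7 in normal libraries. SAR c and normal c were the highest of their groups. Foxm1 rose in model against normal liver (log2 3.28, limma adjusted p = 0.0359; 0.128, 0.106 and 0.0784 without model a, model b and normal a) and fell in SAR against model liver (log2 -2.24, limma adjusted p = 0.0229; 0.104, 0.0855 and 0.0640 without model a, model b and SAR b). Foxm1 overlaps Tex52 on the same strand.

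Cks2 (ENSMUSG00000062248), a small subunit of CDK complexes, passed in neither comparison. It averaged 152 ± 11.2 in SAR, 198 ± 58.2 in model and 142 ± 32.4 in normal libraries. The model group overlapped both others.

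Proliferation and chromosome structure markers moved in the same directions. Mki67 (ENSMUSG00000031004), which coats mitotic chromosomes and is the usual histological proliferation marker, had 78.8, 21.8 and 53.9 normalised reads in SAR, 495, 698 and 249 in model and 23.1, 42.2 and 152 in normal libraries. Normal c stood well above the other normal libraries, and every model library was above the rest. Mki67 rose in model against normal liver (log2 3.03, SE 0.67, limma adjusted p = 0.0113) and fell in SAR against model liver (log2 -3.25, SE 0.49, limma adjusted p = 0.00281). Top2a (ENSMUSG00000020914), the topoisomerase that untangles sister chromatids, had 26.3, 15.8 and 32.1, 198, 171 and 95.6 and 20.2, 28.1 and 64 in SAR, model and normal libraries. Top2a rose in model against normal liver (log2 2.12, SE 0.46, limma adjusted p = 0.0107; 0.0509 without model a) and fell in SAR against model liver (log2 -2.59, SE 0.37, limma adjusted p = 0.00212). Birc5 (ENSMUSG00000017716), survivin of the chromosomal passenger complex, had 15.5, 14.5 and 11.6, 97.5, 155 and 58.9 and 5.77, 15.1 and 16.6 in the same order of groups. Birc5 rose in model against normal liver (log2 2.97, SE 0.51, limma adjusted p = 0.00497) and fell in SAR against model liver (log2 -2.72, SE 0.39, limma adjusted p = 0.00230). SAR and normal libraries overlapped for all 3 genes.

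The anaphase-promoting complex, which triggers chromosome separation, was represented by its activator and its ubiquitin-conjugating enzyme. Cdc20 (ENSMUSG00000006398), the activator, had 13.1, 2.42 and 2.57 normalised reads in SAR, 199, 226 and 53.4 in model and 0.961, 28.1 and 21 in normal libraries. It had the lowest log2 fold change of the 40 genes in SAR against model liver (log2 -4.60, SE 0.71, limma adjusted p = 0.00303) and rose in model against normal liver (log2 3.65, SE 1.04, limma adjusted p = 0.0277; 0.103 and 0.0984 without model a and model b). Normal a held far fewer reads of it than normal b and c. Ube2c (ENSMUSG00000001403), the conjugating enzyme, had 33.4, 3.64 and 12.8 in SAR, 265, 280.1 and 68.5 in model and 3.84, 7.57 and 37.5 in normal libraries. In model against normal liver it rose (log2 3.89, SE 0.83, limma adjusted p = 0.0104) and fell in SAR against model liver (log2 -3.73, SE 0.75, limma adjusted p = 0.00864), and with limma voom neither call passed (adjusted p 0.0714 and 0.0738). Cdc20 overlaps Elovl1 and Ube2c overlaps Tnnc2 on the other strand. Among the 40 genes, 10 overlap a protein coding gene. Besides these, Mcm7 and Foxm1, they were Ccna2 (Exosc9), Ccnd1 (LTO1), Ccne2 (Ints8), Kif20a (Cdc23), Nusap1 (Oip5) and Prc1 (Rccd1), on the other strand.

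Spindle genes changed likewise. Tpx2 (ENSMUSG00000027469), which nucleates spindle microtubules and activates Aurora A, had 20.3, 3.64 and 15.4 normalised reads in SAR, 174, 167 and 62.9 in model and 5.77, 10.8 and 12.1 in normal libraries. Its level rose in model against normal liver (log2 3.60, SE 0.48, limma adjusted p = 0.00243) and fell in SAR against model liver (log2 -3.39, SE 0.62, limma adjusted p = 0.00582). Nusap1 (ENSMUSG00000027306), a microtubule-binding spindle protein, had 28.6, 3.64 and 16.7, 79.6, 86.8 and 51 and 13.5, 16.2 and 11 in SAR, model and normal libraries. Nusap1 rose in model against normal liver (log2 2.31, SE 0.35, limma adjusted p = 0.00331) and fell in SAR against model liver (log2 -2.41, SE 0.63, limma adjusted p = 0.0226; 0.0801 and 0.0859 without model a and model b). SAR b was the lowest library for both genes. Kif11 (ENSMUSG00000012443), the kinesin that separates spindle poles, averaged 14.9 ± 6.25 in SAR, 70.4 ± 32 in model and 16.9 ± 5.53 in normal libraries. Its calls (log2 1.92 in model against normal and -2.12 in SAR against model liver, limma adjusted p = 0.0154 and 0.0129) were lost without model a or model b (0.0687 and 0.0716 for the first, 0.0607 and 0.0672 for the second), and also without normal a (0.0521) and SAR b (0.0506).

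The cytokinesis genes Prc1 and Kif20a each passed in 1 comparison. Prc1 (ENSMUSG00000038943), which bundles midzone microtubules, had 14.3, 1.21 and 5.14 in SAR, 58.8, 38.8 and 11.9 in model and 5.77, 4.32 and 4.42 in normal libraries. Model c lay below SAR a. It rose in model against normal liver (log2 2.43, limma adjusted p = 0.0214; 0.0990, 0.0949, 0.0528 and 0.0530 without model a, model b, normal a and normal b) and did not pass in SAR against model liver (log2 -2.40, limma adjusted p = 0.0581; called at 0.0322 without SAR a and 0.0119 without model c). Kif20a (ENSMUSG00000003779), a kinesin of the central spindle, had 5.97, 3.64 and 3.85 in SAR, 36.6, 59.4 and 17.5 in model and 0.961, 10.8 and 12.1 in normal libraries. It fell in SAR against model liver (log2 -2.69, limma adjusted p = 0.0108; 0.0553 and 0.0780 without model a and model b). It did not pass in model against normal liver (log2 2.37, limma adjusted p = 0.0555; called at 0.0422 without model c and 0.0364 without normal c).

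Kinetochore and checkpoint genes, which hold anaphase back until chromosomes are attached, were higher by mean in model libraries too. Plk1, Cenpe, Cenpf, Bub1 and Ttk passed the filter on low values only through those libraries, which favours such a difference. Bub1b, which did not depend on them to pass, was not called in model against normal liver. Plk1 (ENSMUSG00000030867), the Polo kinase, had 9.55, 3.64 and 6.42 normalised reads in SAR, 122, 161 and 27.9 in model and 8.65, 2.16 and 17.7 in normal libraries. It fell in SAR against model liver (log2 -3.54, SE 0.66, limma adjusted p = 0.00630) and rose in model against normal liver (log2 3.33, SE 0.83, limma adjusted p = 0.0177; 0.0767 and 0.0754 without model a and model b). Cenpe (ENSMUSG00000045328), a kinetochore motor, averaged 8.51 ± 5.06 in SAR, 87.3 ± 42.9 in model and 9.46 ± 8.93 in normal libraries, and Cenpf (ENSMUSG00000026605), another kinetochore protein, averaged 3.66 ± 1.10, 73 ± 41.2 and 5.84 ± 5.55. Cenpe and Cenpf rose in model against normal liver (log2 3.46 and 3.83, limma adjusted p = 0.0171 and 0.0190), which was lost without model a (0.0720 and 0.0789) or model b (0.0719 and 0.0804). They fell in SAR against model liver (log2 -3.19 and -3.80, limma adjusted p = 0.00449 and 0.00308).

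Bub1b (ENSMUSG00000040084), the checkpoint protein BubR1, had 9.55, 3.64 and 10.3 in SAR, 50.9, 63.2 and 46.2 in model and 9.61, 8.65 and 42 in normal libraries. Normal c reached close to the model libraries. Bub1b fell in SAR against model liver (log2 -2.72, SE 0.47, limma adjusted p = 0.00462) and did not pass in model against normal liver (log2 1.72, SE 0.59, limma adjusted p = 0.0504; called at 0.00323 without normal c). Bub1 (ENSMUSG00000027379), a kinase of the same checkpoint, had 4.77, 0 and 2.57 in SAR, 37.3, 32.7 and 16.7 in model and 2.88, 6.48 and 8.83 in normal libraries, from 6, 116 and 17 reads. It rose in model against normal liver (limma adjusted p = 0.0228; 0.0999, 0.0998 and 0.0658 without model a, model b and normal a) and fell in SAR against model liver (limma adjusted p = 0.0155; 0.0853 and 0.0836 without model a and model b).

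Ttk (ENSMUSG00000038379), the checkpoint kinase Mps1, had 1.19, 0 and 2.57 in SAR, 27.2, 39.6 and 12.7 in model and 0, 6.48 and 4.42 in normal libraries. With 3 reads over the SAR group and 10 over the normal group, against 106 over the model group, its fold changes are imprecise. It was called higher in model against normal liver (limma adjusted p = 0.0370; 0.121, 0.149 and 0.0699 without model a, model b and normal a) and lower in SAR against model liver (limma adjusted p = 0.0118; 0.0689 without model a, and below the filter on low values without model b). Melk (ENSMUSG00000035683) had 1.19, 2.42 and 1.28, 17.2, 24.4 and 15.1 and 0.961, 4.32 and 2.21, from 4, 75 and 7 reads in SAR, model and normal groups. It rose in model against normal liver (limma adjusted p = 0.0174; 0.0501 without normal a) and fell in SAR against model liver (limma adjusted p = 0.0142), but was below the filter without any 1 model library.

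The Aurora kinases differed from each other. Aurkb (ENSMUSG00000020897), of the chromosomal passenger complex, had 7.16, 10.9 and 5.14 in SAR, 30.1, 53.3 and 27.1 in model and 2.88, 15.1 and 9.94 in normal libraries. It rose in model against normal liver (log2 2.04, SE 0.62, limma adjusted p = 0.0336; 0.0881, 0.136 and 0.0744 without model a, model b and normal a) and fell in SAR against model liver (log2 -2.10, SE 0.48, limma adjusted p = 0.0139; 0.0909 without model b). Aurka (ENSMUSG00000027496), of the spindle poles, had 59.7, 32.7 and 37.2, 90.3, 95.9 and 33.5 and 44.2, 58.4 and 42 in SAR, model and normal libraries. Model c was below every normal library and below 2 SAR libraries. Aurka did not pass in model against normal liver (log2 0.47, limma adjusted p = 0.402) or in SAR against model liver (log2 -0.65, limma adjusted p = 0.281), and was called in both without model c (0.0262 and 0.0203).

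**Figure D3:**
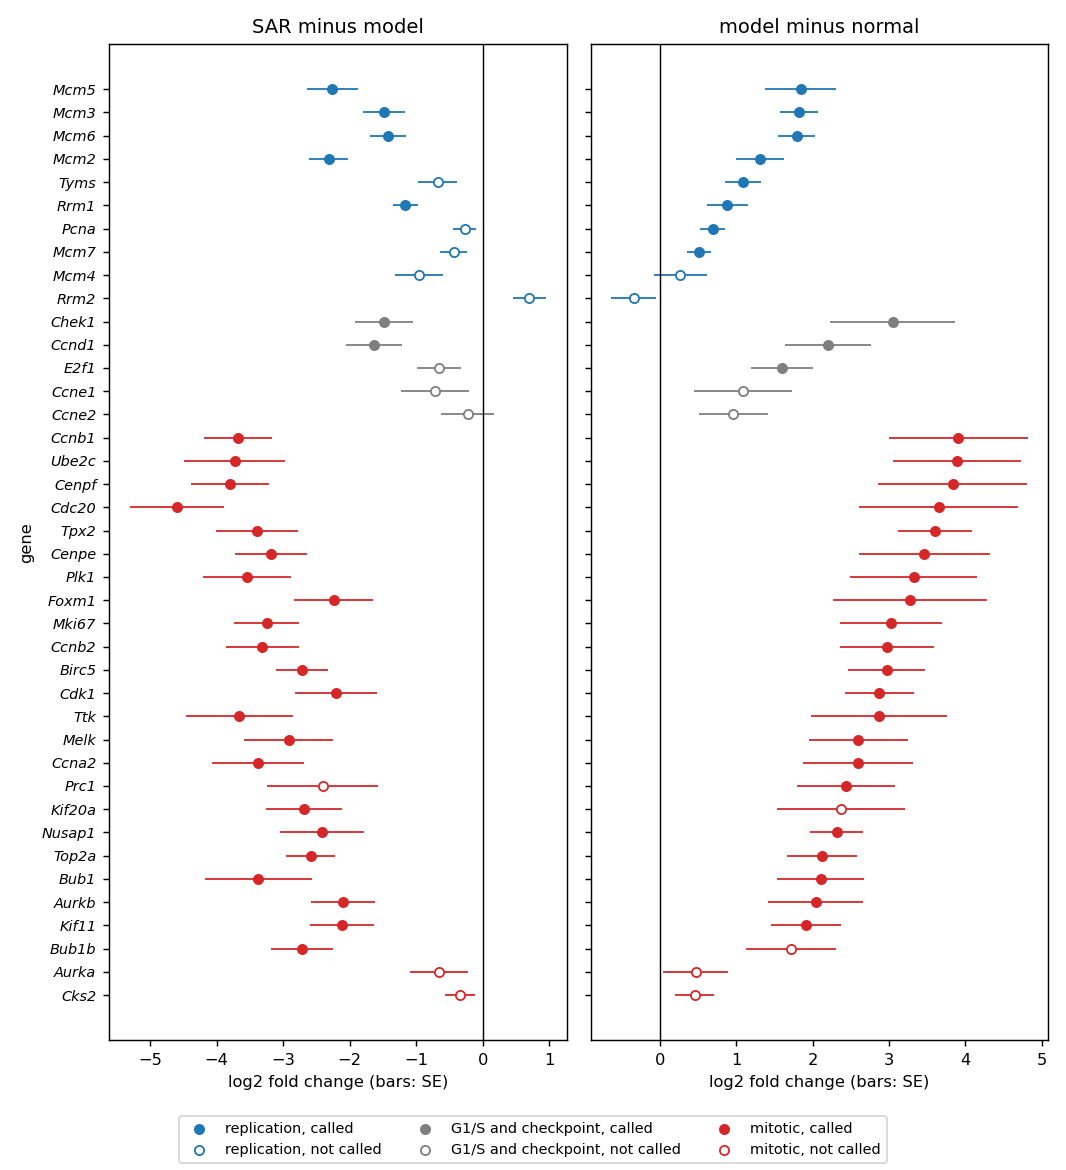
Log2 fold change with SE (horizontal axes) of each of the 40 genes (vertical axis) in SAR minus model (left) and model minus normal (right), coloured by role; filled points passed the test at an adjusted p under 0.05 and open points did not. Mitotic genes other than Aurka and Cks2 lie farther from 0 than most replication genes, and Rrm2 lies on the opposite side of 0 from the other replication genes.

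Cell cycle genes of SAR liver were set directly against normal liver, and 0 of the 27 that could be tested were called, beside 1.73% of 11681 genes tested that were higher and 1.84% that were lower. At an unadjusted limma p under 0.05 there were 3, and limma voom called 0. The median log2 difference was 0.21 for 10 replication genes, 0.65 for 4 G1/S genes and -0.19 for 13 mitotic genes, against 0.00 over all genes. The other 13 genes were below the filter on low values in these libraries and had entered the other comparisons through their model levels. A miss of the threshold does not show equal levels, and the intervals were wide.

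The 3 genes at an unadjusted p under 0.05 were replication genes. Mcm2 averaged 19.7 ± 4.36 normalised reads in SAR and 41.8 ± 13.8 in normal libraries (log2 -1.01, 95% interval -1.90 to -0.12, limma adjusted p = 0.151). Mcm4 averaged 34.3 ± 5.43 and 56 ± 8.54 (log2 -0.69, -1.33 to -0.06, limma adjusted p = 0.163). Pcna averaged 426 ± 43.9 and 318 ± 30.7 (log2 0.42, 0.09 to 0.74, limma adjusted p = 0.117). The first 2 were lower and Pcna was higher by mean in SAR liver. Of the genes called in the other comparisons, Mcm6 had a log2 difference of 0.36 with an interval of -0.29 to 1.01, and Mcm3 one of 0.34 with -0.48 to 1.16. The mitotic intervals were wider, from -1.83 to 1.38 for Mki67 (log2 -0.22), -2.07 to 2.38 for Ube2c (log2 0.16) and -0.70 to 2.02 for Cdk1 (log2 0.66).

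Replication and mitotic genes differed in how they varied among the libraries of the model group. All 25 mitotic genes had their lowest model value in library c, where 42.0% of 12599 genes had theirs, and 20 of the 25 had their highest in b, as did 25.7% of all genes. Their median log2 difference between model c and the mean of model a and b was -1.40. Of the 10 replication genes, 6 had their highest model value in c, beside 39.8% of all genes, and 1 its lowest, with a median difference of 0.34, and 4 of the 5 G1/S genes also peaked in c. The median mitotic gene stood at 90.3, 107 and 39.0 normalised reads in model a, b and c, and the median replication gene at 123, 128 and 153. Letters were given by size factor, so these are values of single libraries and no test was made of them.

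Other genes of the same roles, outside the 40, were listed with earlier results of these data known. Most of the mitotic ones were lowest in model c, while the share of replication genes highest there was near that of all genes. Of 81 other mitotic genes, 68 were lowest in model c (median log2 -0.90), and of 49 other replication genes 21 (42.9%, near the 39.8% of all genes) were highest and 15 lowest there (median 0.06). In the other groups no library held all mitotic genes at 1 extreme. In the SAR group 17 of the 25 were highest in a (37.6% of all genes) and 18 lowest in b (32.3%), and in the normal group 16 were highest in c (40.7%) and 16 lowest in a (28.9%). An alternative chosen after the data were seen left out both normal c and model c. In it 36 of the 40 genes rose in model against normal liver, made up of 8 replication, 3 G1/S and all 25 mitotic genes. Calls over all genes became more frequent too, with 3708 of 12420 that rose, beside 2483 of 12344 with all libraries. Without model c alone, 23 of the 24 mitotic genes tested and 5 of the 10 replication genes fell in SAR against model liver. Over all genes 2644 of 12320 fell in that fit, beside 2045 of 12329 with all libraries.

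**Figure D4:**
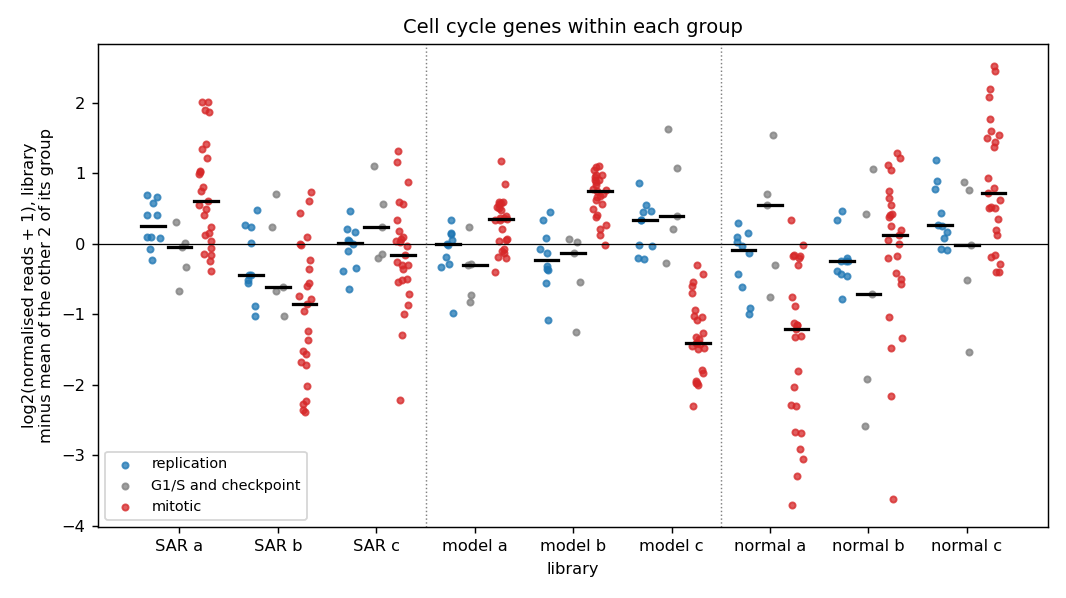
Difference of each library from the mean of the other 2 libraries of its group (vertical axis, log2 of normalised reads + 1) for each of the 40 genes (points, coloured by role) in each library (horizontal axis); black bars are medians. Mitotic genes lie below 0 in model c with a median of -1.40, while replication genes there have a median of 0.34.

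Markers of several other liver cell types moved with the groups, and some of them also with the model libraries. The summed level of 9 cholangiocyte markers was 768 to 1702 normalised reads in SAR, 9597, 10916 and 2006 in model a, b and c, and 467 to 855 in normal libraries, so that model c held the least of the model libraries. The 8 stellate cell markers summed to 1545 to 3371 in SAR, to 16500, 15153 and 4885 in model a, b and c, and to 396 to 2020 in normal libraries. The 12 macrophage markers summed to 5682 to 8388 in SAR, 17614 to 20107 in model and 5431 to 8114 in normal libraries, without a low model c. Markers of T and NK cells summed to 216 to 379 in SAR, 726 to 866 in model and 133 to 157 in normal libraries. In model against normal liver all 8 cholangiocyte markers tested, 5 of 8 stellate, 8 of 12 macrophage and 9 of 11 T and NK cell markers rose. Over all genes 20.1% rose, and 1 macrophage marker fell. In SAR against model liver 5, 7, 9 and 5 of these markers fell, beside 16.6% of all genes. Endothelial and erythroid markers went otherwise, as 3 of 6 and 3 of 5 tested fell in model against normal liver and 0 rose. In SAR against model liver 1 endothelial marker fell, and 1 erythroid marker rose and 1 fell. Of the 12 T and NK cell markers listed, 11 were in the deposited data. No marker that was summed was at 0 in all libraries. The 2 hepatocyte markers with solved reads, Asgr1 and G6pc, summed to 9444 to 11655 in SAR, to 3929, 4905 and 8965 in model a, b and c, and to 12116 to 12951 in normal libraries, so that model c held the most of the model libraries. B and plasma cell markers summed to 257 to 585 in SAR, 827 to 1627 in model and to 142, 147 and 740 in normal a, b and c. Neutrophil markers summed to 227 to 576 in SAR, 1222 to 2751 in model and to 106, 232 and 7593 in normal a, b and c, so that normal c, where 16 mitotic genes were highest, stood apart for both lists. The part of these cells in the levels of the cell cycle genes was not tested.

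Further cell cycle genes had their larger median fold changes among mitotic genes. Their lists were written by role and not by value, but with earlier results of these data known, so they are no independent check. Of 74 other mitotic genes tested, 51 rose and 2 fell in model against normal liver (median log2 2.26), and of 47 other replication genes 12 rose and 0 fell (median 0.64). In SAR against model liver 51 of 74 other mitotic genes fell and 2 rose (median -2.20), and of 46 other replication genes 9 fell and 2 rose (median -0.59). The shares over all genes tested were 20.1% that rose in model against normal liver and 16.6% that fell in SAR against model liver, close to those of the other replication genes. Of the other mitotic genes 38 passed the filter on low values only through their model libraries, so their counts are no support for the pattern. Among the remaining 36, 20 rose and 2 fell in model against normal liver (median 1.22), and 21 fell and 2 rose in SAR against model liver (median -1.52). Of the other replication genes 9 passed it only so in model against normal liver and 8 in SAR against model liver. Among the remaining 38, 7 rose and 0 fell in the first comparison (median 0.44), and 4 fell and 2 rose in the second (median -0.46). The difference between the roles was not tested. Over the other lists together 73 genes were called in model against normal liver and 69 in SAR against model liver. Without model a these numbers were 36 and 29, and without model b they were 36 and 28. Calls over all genes also became fewer in these fits.

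Among the other replication genes, the largest changes were those of Cdc7, the kinase that fires origins, Gins2 of the replicative helicase complex and Asf1b, a histone chaperone. Cdc7 (ENSMUSG00000029283) had 1.19, 2.42 and 2.57 normalised reads in SAR, 30.1, 28.2 and 25.5 in model and 3.84, 0 and 1.10 in normal libraries, with a narrow model group (log2 3.73, SE 0.73, limma adjusted p = 0.00786 in model against normal liver). It fell in SAR against model liver (log2 -3.27, SE 0.58, limma adjusted p = 0.00543). Gins2 (ENSMUSG00000031821) averaged 1.69 ± 1.97, 31.2 ± 1.0001 and 5.92 ± 5.57, and Asf1b (ENSMUSG00000005470) averaged 4.05 ± 3.79, 32.7 ± 14.2 and 4.70 ± 3.44 in SAR, model and normal libraries. Gins2 and Asf1b rose in model against normal liver (limma adjusted p = 0.0421 and 0.0192) and fell in SAR against model liver (0.00680 and 0.0152). Cdc7, Gins2 and Asf1b had means under 10 in SAR and normal libraries and passed the filter on low values only through their model libraries. Their calls are therefore no support for the pattern.

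The 2 other replication genes that rose in SAR against model liver, singled out after their values were seen, were Tk1 and Mcm10. Tk1 (ENSMUSG00000025574), thymidine kinase 1 of nucleotide salvage, had 177, 394 and 311 in SAR, 91.8, 136 and 158 in model and 127, 104 and 82.8 in normal libraries. Every SAR library was above every other library, and Tk1 was also higher in SAR than in normal liver (log2 1.43, SE 0.30, limma adjusted p = 0.0453; in SAR against model liver log2 1.15, SE 0.31, limma adjusted p = 0.0261). Mcm10 (ENSMUSG00000026669), an origin firing factor, had 707, 656 and 1102 in SAR, 115, 129 and 499 in model and 1015, 623 and 350.1 in normal libraries, with the normal libraries spread widely (log2 2.03, SE 0.50, limma adjusted p = 0.0173 in SAR against model liver).

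Among the other mitotic genes, Cdkn3 (ENSMUSG00000037628), a phosphatase of CDK1 and CDK2, had the largest rise in model against normal liver (log2 4.84, SE 0.87, limma adjusted p = 0.00589), with 88.2, 173 and 40.6 normalised reads in model and 0, 7.57 and 2.21 in normal libraries. Kif2c (ENSMUSG00000028678), a microtubule-depolymerising kinesin, averaged 49.9 ± 22.7 in model and 3.61 ± 5.33 in normal libraries (log2 4.05, SE 0.92, limma adjusted p = 0.0126). Troap, a spindle-associated protein, had 0 reads in the SAR group and 32.3, 28.2 and 13.5 normalised reads in model libraries, and was called lower in SAR and higher in model liver. Depdc1a, with 2.39, 0 and 0 in SAR and 45.2, 42.6 and 23.1 in model libraries, and Ckap2l, with 3.58, 0 and 0 and 65.2, 57.1 and 15.9, had the other largest falls in SAR against model liver (limma adjusted p = 0.00430 and 0.00694). Cdkn3 and Kif2c had means under 10 in normal libraries, as did Troap, Depdc1a and Ckap2l in SAR libraries. They passed the filter on low values in those comparisons through their model libraries. Their tests there are therefore no support for the pattern.

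A few listed mitotic genes went the other way and were singled out after their values were seen. Ccnf (ENSMUSG00000072082), cyclin F, had 197, 239.9 and 175 normalised reads in SAR, 100.4, 79.9 and 86.8 in model and 449, 482 and 497 in normal libraries, and none of the groups overlapped. It fell in model against normal liver (log2 -2.41, SE 0.15, limma adjusted p = 0.000261), rose in SAR against model liver (log2 1.18, SE 0.20, limma adjusted p = 0.00429) and was lower in SAR than in normal liver (log2 -1.23, SE 0.15, limma adjusted p = 0.0190). Zwint (ENSMUSG00000019923), a kinetochore protein, averaged 806 ± 215 in SAR, 485 ± 106 in model and 1206 ± 56.3 in normal libraries and fell in model against normal liver (log2 -1.33, SE 0.17, limma adjusted p = 0.00217). Pttg1 (ENSMUSG00000020415), securin, averaged 402 ± 43.2, 258 ± 3.52 and 341 ± 53.4 and rose in SAR against model liver (log2 0.63, SE 0.15, limma adjusted p = 0.0140).

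Of 20 other G1/S regulators tested, 3 rose (Cdk2, Myc and Rbl1) and 3 fell (Rbl2, E2f6 and Tfdp2) in model against normal liver, and 4 fell (E2f2, Myc, Rbl1 and Ccnd2) in SAR against model liver. Over all genes 20.1% rose and 19.3% fell in the first comparison and 16.6% fell in the second, so these shares lie near the background. Myc (ENSMUSG00000022346), a growth-promoting transcription factor, had 78.8, 88.5 and 68 normalised reads in SAR, 336, 385 and 284 in model and 74, 91.9 and 91.7 in normal libraries. In model against normal liver it rose (log2 1.95, SE 0.18, limma adjusted p = 0.000949) and fell in SAR against model liver (log2 -2.08, SE 0.19, limma adjusted p = 0.000488). Rbl1 (ENSMUSG00000027641), the pocket protein p107 and itself an E2F target, had 34.6, 31.5 and 16.7, 83.9, 76.1 and 90.003 and 16.3, 19.5 and 21, and rose and fell in the same comparisons (log2 2.09 and -1.62, limma adjusted p = 0.00209 and 0.00880). The pocket protein p130 of resting cells, Rbl2 (ENSMUSG00000031666), averaged 192 ± 42.3, 145 ± 35.2 and 342 ± 27.3 in SAR, model and normal libraries and fell in model against normal liver (log2 -1.26, SE 0.20, limma adjusted p = 0.00383). E2f2 (ENSMUSG00000018983) averaged 3.74 ± 2.32 in SAR and 31.6 ± 5.20 in model libraries (log2 -2.87, SE 0.56, limma adjusted p = 0.00725). E2f2 passed the filter on low values only through its model libraries.

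Of 5 CDK inhibitors tested, 2 rose in model against normal liver (20.1% of all genes) and 1 fell in SAR against model liver (16.6%). Cdkn1c (ENSMUSG00000037664), p57, had 39.4, 9.69 and 27 normalised reads in SAR, 73.1, 64.7 and 60.5 in model and 7.69, 13 and 17.7 in normal libraries. Cdkn1c rose in model against normal liver (log2 2.35, SE 0.38, limma adjusted p = 0.00408) and fell in SAR against model liver (log2 -1.54, SE 0.47, limma adjusted p = 0.0384). Cdkn2c (ENSMUSG00000028551), p18, averaged 243 ± 67.7, 211 ± 29.4 and 93.7 ± 20.4 in the same order. Cdkn2c rose in model against normal liver (log2 1.18, SE 0.22, limma adjusted p = 0.00685) and was higher in SAR than in normal liver (log2 1.36, SE 0.25, limma adjusted p = 0.0340). Against normal liver, Tk1, Cdkn2c and Ccnf were the 3 of 98 further cell cycle genes called in SAR liver. Over all genes tested 1.73% were higher and 1.84% lower in that comparison, so the count lies near the background. The number called was 0 without normal a, normal b or SAR a, 1 without SAR b or SAR c, and 9 without normal c. Over all genes 542 were higher and 540 lower without normal c, beside 202 and 215 with all libraries.

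Promoters of the listed genes were searched for the elements linked to each role, in windows from 250 bases before to 50 after the RefSeq start on GRCm38.p6. Windows were in the table for 33 of the 41 listed genes. An E2F word was present in 5 of 10 replication genes (Cdc6, Mcm3, Mcm5, Mcm6 and Mcm7), 0 of 3 G1/S genes and 1 of 20 mitotic genes, against 2.60% of 27025 genes in the table. A CHR element, searched as TTTGAA or TTCGAA on both strands, was present in 14 of 20 mitotic and 2 of 10 replication genes, against 21.7% of all genes. A CCAAT box, searched as CCAAT on both strands, was in 17 of 20 mitotic and 8 of 10 replication genes, against 41.1% of all genes. The other genes showed a like division, with CHR elements in 50 of 66 mitotic and 9 of 41 replication genes and E2F words in 7 of 66 and 14 of 41. Among the listed genes 1 match overlapped a match to another motif, an E2F word and a CCAAT box in Mcm7. A match is a description of letters, and no binding was measured.

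The promoter of Cdk1 is shown because, of the called mitotic genes that hold a CHR element, it had the smallest p in model against normal liver (chr10:69352863-69353162, minus strand). Capitals mark its CHR matches, at positions -71 and -15, which follow CCAAT boxes of the other strand at -80 and -48. Cdk1 was also the mitotic gene with an E2F word, at -131.
Cdk1: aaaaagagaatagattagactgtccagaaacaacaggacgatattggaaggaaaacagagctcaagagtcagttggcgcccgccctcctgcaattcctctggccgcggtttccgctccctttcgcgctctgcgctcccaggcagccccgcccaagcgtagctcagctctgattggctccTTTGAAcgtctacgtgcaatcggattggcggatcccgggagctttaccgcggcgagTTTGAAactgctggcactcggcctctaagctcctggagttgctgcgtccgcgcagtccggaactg
The CHR matches nearest the start in 4 further mitotic genes are shown with 17 bases on either side, in capitals. They begin at position 4 in Ccnb2 (chr9:70421528-70421567, minus), -29 in Ube2c (chr2:164769883-164769922, plus), -23 in Top2a (chr11:99024190-99024229, minus) and -98 in Mki67 (chr7:135716455-135716494, minus).
Ccnb2: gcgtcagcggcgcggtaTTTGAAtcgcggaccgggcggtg
Ube2c: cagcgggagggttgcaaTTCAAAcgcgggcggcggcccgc
Top2a: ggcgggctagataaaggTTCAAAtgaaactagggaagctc
Mki67: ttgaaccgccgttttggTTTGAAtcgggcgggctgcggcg

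**Figure D5:**
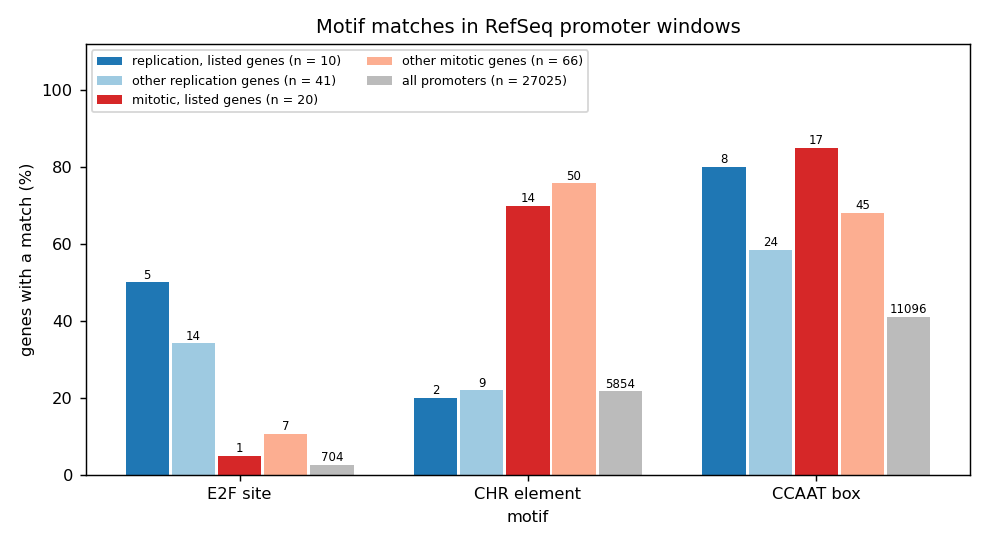
Share of genes (vertical axis, percent) whose promoter window holds an E2F site, a CHR element or a CCAAT box (horizontal axis), for listed and other replication and mitotic genes and for all genes in the table; numbers above bars are genes with a match. E2F sites are in 5 of 10 listed replication and 1 of 20 listed mitotic genes, and CHR elements in 2 of 10 and 14 of 20.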

How the data were processed

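Liver RNA of 9 mouse samples in 3 groups was measured by RNA-seq. Per the labels' protocols, Trizol was used to extract total RNA and a NEBNext Ultra kit to prepare libraries. Per the submitters' processing notes, mm9 was the build. No aligner, read counter, annotation or strand setting is stated. The authors deposited 2 tables of DESeq results. Their signal is the group mean of read counts divided by size factors, per the file headers. The deposited fold is the ratio of group means and the deposited log2 value is its logarithm. The authors' DESeq test gave the deposited p-values, raw and adjusted.

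The files hold group means rather than values per sample, and each mean is a sum of whole reads times a constant of each library. These constants were read from genes with 1 read, and each mean, given to 15 digits, was solved for its reads. All 9 libraries were solved for 16338 genes and not for 183, mostly abundant ones. Model means were in both tables, and 16072 of 16072 genes that each table alone could solve had the same reads. Of 1000 means moved slightly 0 were solved, and of the unmoved 1000 were. The largest difference between recomputed and authors' size factors was 0.715%.

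Values are reads divided by median-of-ratios size factors over all 9 libraries. Genes with a mean of at least 10 over the 6 libraries compared were tested with limma 3.58.1 (trended variance, R 4.3.3) on log2(value + 1), which understates changes of low genes, two-sided. P-values were adjusted by Benjamini-Hochberg over every gene tested and called under 0.05. The fits were tested on simulated data. The joint scaling allowed SAR and normal libraries, deposited in separate tables, to be compared. Groups came from the treatment label, and no samples were paired. Alternatives changed the scaling, pseudocount, filter, fit and libraries. The genes and lists were chosen with earlier results of these data known. Named among other genes were the 3 largest log2 fold changes of those called per list and comparison. Promoter windows came from RefSeq (GRCm38.p6), a different build from the files', and overlaps of genes from GENCODE M21.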

Additional observations from a re-analysis of the deposited data

How the results depend on the processing

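The number of cell cycle genes called was 32 in model against normal liver and between 23 and 34 under the authors' size factors, upper-quartile scaling, pseudocounts of 0.5 and 5, filters at 1 and none, 1 fit of all libraries, limma voom and the authors' deposited DESeq values. Leaving out each library in turn gave 12 to 34. In SAR against model liver it was 29, and 26 to 29 under the same alternatives except limma voom, which called 18; leaving out each library gave 19 to 29. In SAR against normal liver it was 0 under every alternative run. Over all genes, leaving out each library gave 1240 to 2834 higher in model against normal liver and 944 to 2644 lower in SAR against model liver. Other cell cycle genes called numbered 73 in model against normal liver (36 to 88 without each library), 69 in SAR against model liver (28 to 80) and 3 in SAR against normal liver (0 to 9). No call changed direction, but the median log2 fold changes by role moved. Leaving out 1 library put the mitotic median at 2.42 to 3.31 in model against normal liver, beside 2.87 with all libraries. The G1/S median in SAR against model liver lay between -1.09 and -0.59 in such fits, beside -0.72. The cause of the changes under limma voom was not tested, and leaving out a library also leaves fewer samples. No paired analysis was possible because the values per library carry no replicate numbers of the labels. The authors' size factors and DESeq values could not be used for SAR against normal liver, which stand in different tables. Depth limits the genes with few reads, such as Ttk with 3 reads over the SAR group, and with 3 libraries a group the spread was wide for most mitotic genes.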
